A study of Harpegnathos saltator with 36 samples.

Results

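The 43 ribosomal RNA (rRNA) loci of a count table of Harpegnathos saltator brains were examined one by one. They are all the rows whose ID starts with Hsal_rRNA, out of 19198 rows in all, and 39 of them had at least 1 read. The rule selects rows by their ID. The table also holds 33 small nuclear RNA (snRNA) loci and 542 transfer RNA (tRNA) loci, which serve here for comparison.

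In Harpegnathos saltator, a ponerine ant, the loss of the queen sets off duels among workers, and some of the duellers turn into egg layers. Ants that had duelled for 3 days were, on transition day 6, injected in the head with Dicer-substrate siRNA mixed with in vivo-jetPEI (siRNA at 5 µM, 0.5 µl per ant). The CrzR siRNA group (9 brains) received siRNA against the corazonin receptor, and the GFP siRNA group (9 brains) received siRNA against GFP, a jellyfish gene that ants lack. The ants were housed in nests of 6, with 3 ants per siRNA, and brains without optic lobes were collected 1 day later, so both groups had duelled, been injected and been rehoused. Each of the 18 libraries came from 1 brain without its optic lobes and mixes the cell types of that tissue. Neither the strain nor the age of the ants is stated in the labels. The row IDs are not paired with gene names, so the extent of the knockdown and markers of brain tissue are not analysed here.

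Ribosomal RNA makes up most of the RNA of a cell. In animals a long precursor is cut into the 18S, 5.8S and 28S molecules, and the 5S molecule is made from separate, often clustered, genes by RNA polymerase III. Genes of both kinds come in many near-identical copies. The 28S molecule of many insects is cut once more at a site called the hidden break. Ribosomal RNA has no poly(A) tail of the kind found on messenger RNA, so a library made from polyadenylated RNA, as here, holds only what passed that selection. The values below describe those reads and are not the rRNA content of the brain. In such bulk tissue, a smaller number of cells of a type and less RNA per cell cannot be told apart.

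Total counts ran from 9741263 to 24166021 per brain. The rRNA loci took 3563776 of 306395450 counts over all brains, between 86933 and 681350 in a brain. They took 0.444% (lowest), 1.23% (median) and 3.14% (highest) of counts with CrzR siRNA, and 0.455%, 0.756% and 2.31% with GFP siRNA. The groups overlapped, with CrzR siRNA replicate 9 above and CrzR siRNA replicate 4 just below the range of the GFP siRNA brains, and the highest brain had 7.06 times the share of the lowest.

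Nearly all of these reads lay on 6 loci. Hsal_rRNA35, Hsal_rRNA36, Hsal_rRNA32, Hsal_rRNA30, Hsal_rRNA37 and Hsal_rRNA28 were the loci with a mean share of at least 1% of the rRNA reads, and they held 99.0% of the rRNA reads of all brains. In single brains they held between 98.5% and 99.4%. Hsal_rRNA35 alone took 48.1 ± 2.46% of the rRNA reads of a brain (SD, n = 18) and Hsal_rRNA36 took 16.8 ± 2.81%. Hsal_rRNA32 took 11.7 ± 1.46%, Hsal_rRNA30 8.23 ± 0.908%, Hsal_rRNA37 7.71 ± 0.731% and Hsal_rRNA28 6.52 ± 1.16%. Hsal_rRNA22 came next with 0.438 ± 0.041%, and every other locus stayed below that. The 95% Wilson interval of a share of rRNA reads in 1 brain was at most ± 0.331 percentage points wide for the 6 loci. Such intervals treat each read as a separate draw and cover counting error only. These reads carry no molecular identifiers, so several reads can come from 1 molecule, and the intervals may be too narrow.

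Locus lengths could be recovered from the deposited RPKM values (reads scaled by row length and library size). They ran from 35 bases (Hsal_rRNA33) to 558 bases (Hsal_rRNA35), with 424 bases for Hsal_rRNA36, 172 for Hsal_rRNA32, 136 for Hsal_rRNA30, 124 for Hsal_rRNA37 and 107 for Hsal_rRNA28. Much of the order by reads followed length. In RPKM recomputed with the brain's own total of all counts, the mean level over 18 brains was 10882 ± 7404 for Hsal_rRNA35 (SD), 8183 ± 5191 for Hsal_rRNA32 and 7772 ± 5333 for Hsal_rRNA37. On the same per-length scale it was 7180 ± 4116 for Hsal_rRNA30, 7065 ± 3807 for Hsal_rRNA28 and 5049 ± 3455 for Hsal_rRNA36. The highest of the 6 was 2.16 times the lowest per length, against 8.03 times in reads. Each of these levels lay within 1 SD of its neighbours in the order. These SDs are spreads between brains, in which the 6 loci rise and fall together. They do not show whether loci differ per length within a brain, which was not tested.

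None of the 39 recovered lengths equals the length of an rRNA gene in RefSeq's annotation of assembly Hsal_v8.6, which lists 63 of them. Of these, 33 are 119 bases long, 15 are 155 bases, 14 are 1919 to 1921 bases and the longest is 3986 bases. None of the row IDs of the count table occurs in that annotation either (0 matches), so no subunit is assigned to any locus here. The 6 loci with most reads add up to 1521 bases.

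The remaining 33 loci with reads held 34436 reads in all. Of these, 16 loci shared a recovered length of 95 bases. They include every locus numbered 3 to 16, 14 in a row, along with Hsal_rRNA25 and Hsal_rRNA26. Together the 16 loci held 17668 reads, or 0.496% of all rRNA reads. Their reads were uneven, between 36 reads for Hsal_rRNA26 and 3533 reads for Hsal_rRNA12 over all brains, a 98.1-fold range at equal length. Hsal_rRNA12 and Hsal_rRNA4 together held 39.6% of the reads of these loci. Hsal_rRNA12 took 20.5 ± 3.45% of them in a brain and Hsal_rRNA4 20.2 ± 2.77% (SD, n = 18). Hsal_rRNA8 took 11.3 ± 2.65%, Hsal_rRNA11 10.6 ± 2.28% and Hsal_rRNA3 10.3 ± 2.44%. How the counting treated reads that align to several copies is not stated, so the split among loci of equal length is uncertain.

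The unevenness was larger still between the 2 loci of 107 bases. Hsal_rRNA28 had 213404 reads over all brains and Hsal_rRNA34 had 86, a ratio of 2481 at equal length. Hsal_rRNA2, the third longest locus with reads at 358 bases, had 97 reads in all. At the low end, 25 of the 39 loci had fewer than 1000 reads summed over the 18 brains, and 6 had fewer than 20. Only 23 loci had a read in every brain. Hsal_rRNA18, Hsal_rRNA21, Hsal_rRNA31 and Hsal_rRNA39 had 0 of 306395450 counts, which allows a level of up to 0.00979 CPM (reads relative to all counts of a library) over all brains, at 3 counts.

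**Figure D1:**
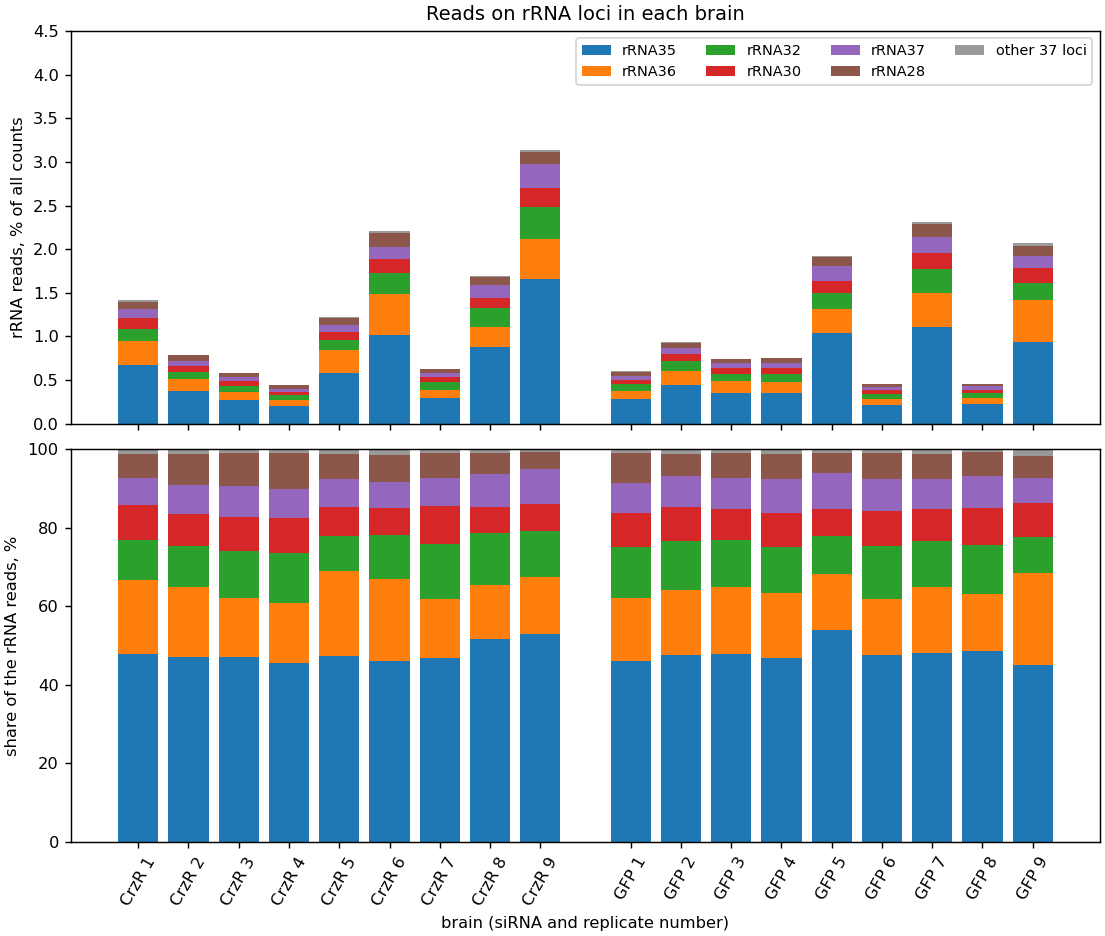
Reads on rRNA loci in each brain, as percent of all counts (upper axis) and as share of the rRNA reads in percent (lower axis), for 9 CrzR siRNA brains on the left and 9 GFP siRNA brains on the right. Colours mark the 6 loci with most reads and grey the other 37. The totals range from 0.444% to 3.14%, while Hsal_rRNA35 keeps between 45.1% and 54.0% of the rRNA reads in every brain.

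The next question was which loci hold the difference between brains with much and with little rRNA. In CPM of all counts, the covariance of each locus with the rRNA total, divided by the variance of the total, gives parts that sum to 100% over the loci. Hsal_rRNA35 held 51.2% of the variance, Hsal_rRNA36 17.2%, Hsal_rRNA32 10.9%, Hsal_rRNA37 8.05%, Hsal_rRNA30 6.86% and Hsal_rRNA28 4.85%. These parts lay near the shares of reads, with Hsal_rRNA35 somewhat above its 48.1% and Hsal_rRNA28 below its 6.52%. Leaving out single brains moved the part of Hsal_rRNA35 between 48.7% and 52.1%.

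Levels of single loci spanned a wide range among brains of the same group. Hsal_rRNA35 was at 2030, 5803 and 16638 CPM (lowest, median, highest) with CrzR siRNA and at 2170, 3571 and 11124 CPM with GFP siRNA. Hsal_rRNA36 was at 673, 2295 and 4650 CPM with CrzR siRNA and at 645, 1267 and 4818 CPM with GFP siRNA. For both loci the groups overlapped and the median was higher in CrzR siRNA brains. At Hsal_rRNA35, CrzR siRNA replicate 9 lay far above the highest GFP siRNA brain. Hsal_rRNA32 was at 566, 1116 and 3722 CPM with CrzR siRNA and at 573, 893 and 2693 CPM with GFP siRNA. Hsal_rRNA30 was at 396, 903 and 2162 CPM with CrzR siRNA and at 408, 641 and 1881 CPM with GFP siRNA. At these loci too the groups overlapped, with CrzR siRNA replicate 9 above every GFP siRNA brain. Hsal_rRNA37 was at 326, 857 and 2749 CPM with CrzR siRNA and at 364, 656 and 1811 CPM with GFP siRNA. Hsal_rRNA28 was at 403, 798 and 1524 CPM with CrzR siRNA and at 281, 493 and 1456 CPM with GFP siRNA. Between the lowest and the highest of all 18 brains, the range of CPM was 8.43-fold for Hsal_rRNA37, 8.20-fold for Hsal_rRNA35, 7.47-fold for Hsal_rRNA36, 6.57-fold for Hsal_rRNA32, 5.46-fold for Hsal_rRNA30 and 5.42-fold for Hsal_rRNA28.

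The brains with the most rRNA were not alike locus by locus. CrzR siRNA replicate 9 had the highest share of rRNA, 3.14% of counts, an excess of 22719 CPM over the median brain. Hsal_rRNA35 held 55.2% of that excess, at 4.06 times its median over brains, and Hsal_rRNA37 was at 3.96 times. Hsal_rRNA36 was at 3.03 times and Hsal_rRNA28 at 2.41 times. The 16 loci of 95 bases summed to 50.3 CPM in this brain, 0.992 times their median, so they did not share in the excess.

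CrzR siRNA replicate 8 and GFP siRNA replicate 5 also had Hsal_rRNA35 and Hsal_rRNA37 further above their medians than the 95-base loci, at lower totals. In CrzR siRNA replicate 8, Hsal_rRNA32 was at 2.23 times its median, Hsal_rRNA35 at 2.14 times, Hsal_rRNA37 at 2.07 times, Hsal_rRNA36 at 1.55 times and the 16 loci of 95 bases at 1.17 times. In GFP siRNA replicate 5, the values were 2.54 times for Hsal_rRNA35, 2.51 times for Hsal_rRNA37, 1.87 times for Hsal_rRNA32, 1.84 times for Hsal_rRNA36 and 1.17 times for the 16 loci. Hsal_rRNA35 took 53.1% of the rRNA reads in CrzR siRNA replicate 9, 51.8% in CrzR siRNA replicate 8 and 54.0% in GFP siRNA replicate 5. In the other 15 brains its share was no higher than 48.7%.

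CrzR siRNA replicate 6 and GFP siRNA replicate 9 had the 95-base loci and Hsal_rRNA36 further above their medians than Hsal_rRNA35 and Hsal_rRNA37. In CrzR siRNA replicate 6, with 2.21% of counts on rRNA, the 16 loci of 95 bases were at 4.18 times their median, Hsal_rRNA36 at 3.13 times, Hsal_rRNA35 at 2.49 times and Hsal_rRNA37 at 2.08 times. In GFP siRNA replicate 9, with 2.07% of counts on rRNA, the 16 loci were at 4.4 times their median, Hsal_rRNA36 at 3.25 times, Hsal_rRNA35 at 2.28 times and Hsal_rRNA37 at 1.92 times. Hsal_rRNA28 was at 2.64 times its median in CrzR siRNA replicate 6, also above Hsal_rRNA35, and at 2.07 times in GFP siRNA replicate 9. Hsal_rRNA30 was at 2.12 times in CrzR siRNA replicate 6 and at 2.42 times, above Hsal_rRNA35, in GFP siRNA replicate 9. GFP siRNA replicate 7, with 2.31% of counts on rRNA, had every one of the 6 loci between 2.52 and 2.72 times its median and the 16 loci at 2.90 times. Among the 4 shallowest libraries were CrzR siRNA replicate 6 with 9741263 counts and GFP siRNA replicates 9 and 7 with 10208661 and 11758941 counts, whereas CrzR siRNA replicates 8 and 9 had 24166021 and 21726119 counts and GFP siRNA replicate 5 had 13575294. The part of depth in these profiles was not tested.

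**Figure D2:**
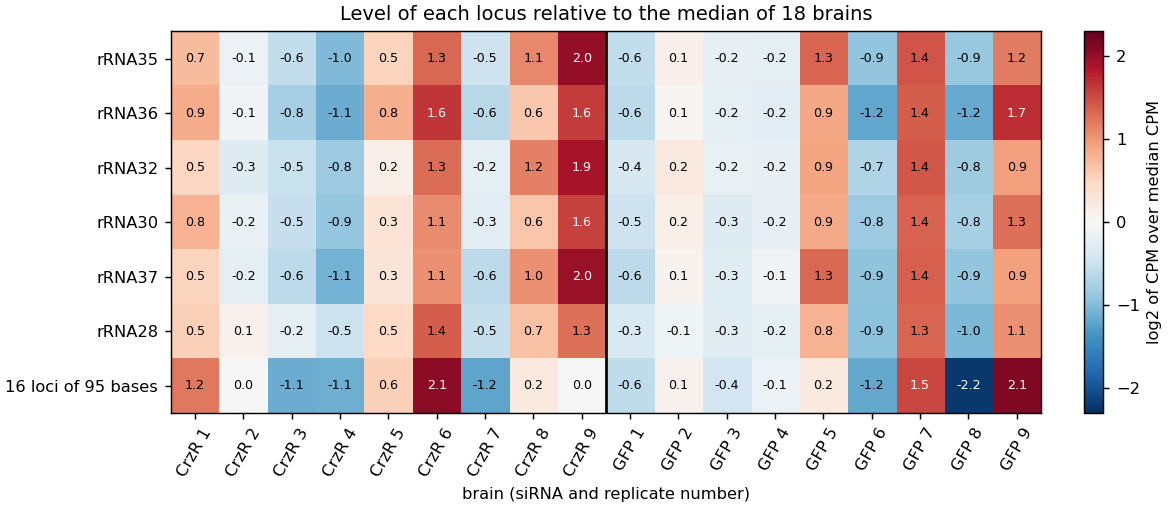
Level of the 6 loci with most reads and of the 16 loci of 95 bases, summed, in each brain, as log2 of the CPM over the median CPM of 18 brains, with CrzR siRNA brains left of the line and GFP siRNA brains right of it. CrzR siRNA replicate 9 is far above the median at Hsal_rRNA35 and near it at the 95-base loci, while CrzR siRNA replicate 6 and GFP siRNA replicate 9 are highest at the 95-base loci.

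The ratio of Hsal_rRNA36 to Hsal_rRNA35 does not depend on the total of all counts. Per 100 reads of Hsal_rRNA35 there were 26.1, 33.2 and 45.9 reads of Hsal_rRNA36 (lowest, median, highest) with CrzR siRNA and 26.3, 35.1 and 51.5 with GFP siRNA. CrzR siRNA replicates 8 and 9 were lowest in their group, at 26.1 and 27.0, and GFP siRNA replicate 5 was lowest in its own, at 26.3. The highest were CrzR siRNA replicates 5 and 6, at 45.9 and 45.7, and GFP siRNA replicate 9, at 51.5. High and low ratios were also found outside the brains with the most rRNA: CrzR siRNA replicate 5 had 1.23% of counts on rRNA, and GFP siRNA replicates 6 and 8, with 0.455% and 0.459%, had ratios of 29.7 and 29.9.

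Groups of loci that vary together were sought among the 19 loci with a mean of at least 10 reads, by average-linkage clustering on Pearson's r of log2(CPM + 1) over the 18 brains. These correlations are descriptions: all loci share the libraries, their depth and the divisor of CPM. At the chosen separation of r = 0.7 all 19 loci formed 1 group, because the last join was at r = 0.76. At r = 0.8 there were 2 groups. One held Hsal_rRNA35, Hsal_rRNA36, Hsal_rRNA32, Hsal_rRNA30, Hsal_rRNA37, Hsal_rRNA28 and Hsal_rRNA22. The other held Hsal_rRNA19, a locus of 74 bases, and the 11 loci of 95 bases with enough reads. How reads that align to several of these loci were counted is not stated, so their counts may not be independent. Whether this adds to their r was not tested.

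Within the first group r ran from 0.93 to 1.00 over 21 pairs, with a median of 0.97. Within the second it ran from 0.84 to 0.98 over 66 pairs, with a median of 0.93. Between the groups it ran from 0.52 to 0.91 over 84 pairs, with a median of 0.76. Hsal_rRNA22 followed the first group although its level per length, 498 ± 332 RPKM (SD, n = 18), was a small part of that of the other members. The 12 loci of the second group stayed together when shares of the rRNA reads were used in place of CPM, while the first group came apart into 6 groups. On that scale Hsal_rRNA35 went with Hsal_rRNA37 (r = 0.76), and Hsal_rRNA36 went against Hsal_rRNA37 (r = -0.81) and against Hsal_rRNA32 (r = -0.72). Shares sum to 100%, which by itself pushes large members apart.

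**Figure D3:**
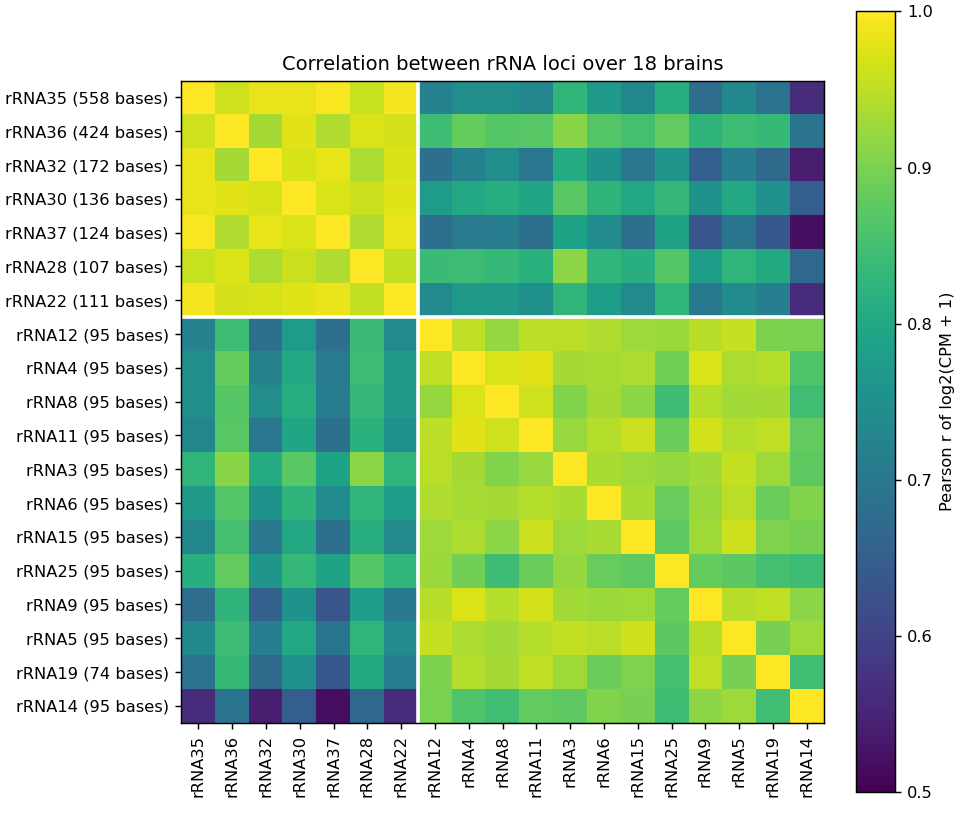
Pearson's r of log2(CPM + 1) over 18 brains for each pair of the 19 rRNA loci with a mean of at least 10 reads, with recovered lengths beside the names. The white lines part the 2 groups found at r = 0.8: r is at least 0.93 in the upper left block and at least 0.84 in the lower right block, and it falls to 0.52 between them.

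The snRNA and tRNA loci of the table moved with the rRNA total to differing degrees. All these values are divided by the total of all counts, so they share a divisor, and the divisor itself is the depth. The permutation p-values below do not allow for that, and for depth it pushes r below 0. Log2 CPM of total rRNA went with that of snRNA at r = 0.73 (permutation p = 0.00043, adjusted p = 0.00129 over 3 relations) over 18 brains. Spearman's rho was 0.76 (permutation p = 0.00044, adjusted p = 0.00132). When the 2 brains with snRNA farthest from its median were left out, r was 0.67. Within the CrzR siRNA group r was 0.57, and within the GFP siRNA group it was 0.88. With tRNA, r was 0.55 (permutation p = 0.0187, adjusted p = 0.0222), with a rho of 0.53 (permutation p = 0.0266, adjusted p = 0.0308). This second relation was weaker without 2 brains, at r = 0.39, and within CrzR siRNA brains, at r = 0.33, than within GFP siRNA brains, at r = 0.76. With log2 depth, r was -0.54 (permutation p = 0.0222, adjusted p = 0.0222), with a rho of -0.52 (permutation p = 0.0308, adjusted p = 0.0308). For depth r was -0.40 without 2 brains, -0.21 among the CrzR siRNA brains and -0.93 among the GFP siRNA brains. The depth relation rests on which brains are included: without CrzR siRNA replicate 9, which combines a deep library with the most rRNA, r was -0.74, and without CrzR siRNA replicate 6 it was -0.48 (permutation p = 0.0524). The tRNA relation likewise missed p = 0.05 without CrzR siRNA replicate 6 (r = 0.48, permutation p = 0.0514) or GFP siRNA replicate 8 (r = 0.48, permutation p = 0.0527).

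Locus by locus, the link with snRNA differed. As a description over the 18 brains, with depth and divisor shared, log2 CPM of the 16 loci of 95 bases went with snRNA at r = 0.96, with tRNA at r = 0.88 and with log2 depth at r = -0.83. For Hsal_rRNA36 the values were 0.84, 0.69 and -0.68, and for Hsal_rRNA28 they were 0.81, 0.65 and -0.63. For Hsal_rRNA35 they were 0.69, 0.50 and -0.50, and for Hsal_rRNA37 they were 0.65, 0.46 and -0.45. For Hsal_rRNA32 and Hsal_rRNA30 the r with snRNA was 0.65 and 0.76. The differences between these values were not tested.

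CrzR siRNA replicate 9 shows the contrast in single values. It had 422 CPM on snRNA and 50.3 CPM on the 16 loci, both the median or close to the median of its group, and 16638 CPM on Hsal_rRNA35, the highest of all brains. GFP siRNA replicate 8 had the lowest snRNA, 129 CPM, and the lowest sum over the 16 loci, 10.8 CPM.

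**Figure D4:**
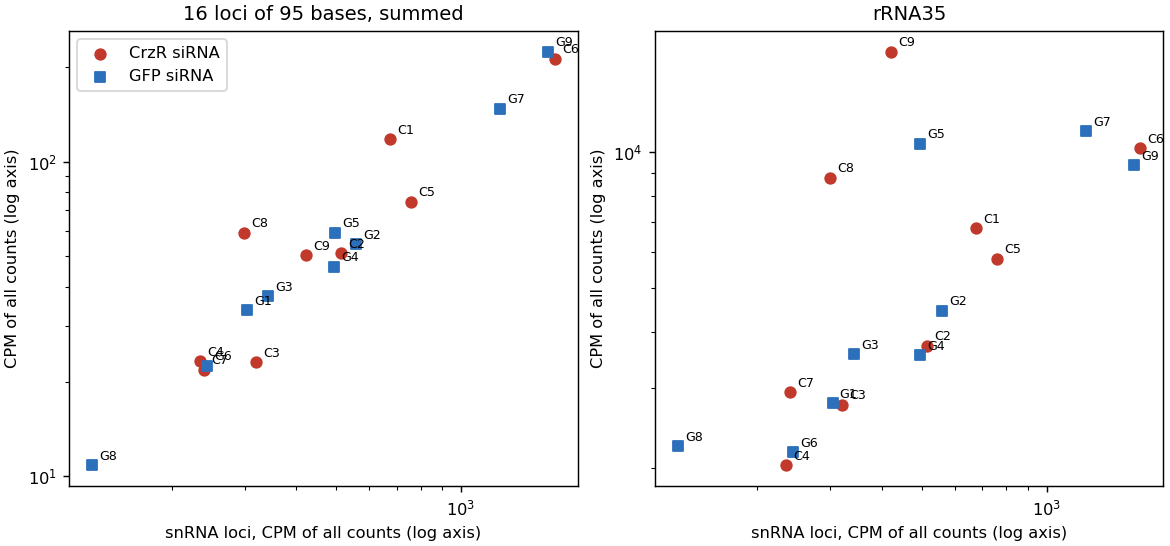
CPM of the 16 rRNA loci of 95 bases, summed (left), and of Hsal_rRNA35 (right) against CPM of all snRNA loci, on log axes, for CrzR siRNA brains (circles, C and replicate number) and GFP siRNA brains (squares, G and replicate number). The left points lie near 1 line (r = 0.96), and on the right CrzR siRNA replicates 8 and 9 and GFP siRNA replicate 5 stand above the other brains with like snRNA (r = 0.69).

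Knockdown of the corazonin receptor was compared with the GFP control at each locus. No rRNA locus passed the test, and the fold changes were small beside their errors. The test was edgeR's quasi-likelihood F test on all 10107 rows with a mean of at least 1 CPM, among them 18 rRNA loci. At a Benjamini-Hochberg adjusted p under 0.05 it called 0 of the 18 loci and 0% of all tested rows. At an unadjusted p under 0.05 it gave 0 of the 18 loci, where the share over all tested rows was 8.15% (824 rows). DESeq2 called 0 of the 18 loci and 3 of all rows (0.0297%), and it gave 0 loci at an unadjusted p under 0.05, against 10.7% of all rows.

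The fitted log2 fold change was above 0 at 9 of the 18 loci and below 0 at 9, with a median of 0.0047, beside -0.00067 over all tested rows. These loci vary together in the 2 groups found at r = 0.8, so they are not 18 separate observations. In the group of Hsal_rRNA35 only Hsal_rRNA30 was below 0. In the other group Hsal_rRNA3, Hsal_rRNA25 and Hsal_rRNA19 were above 0 and the other tested members below. For Hsal_rRNA35 the fold change was 0.11 (SE 0.45, edgeR adjusted p = 0.908), for Hsal_rRNA36 0.046 (SE 0.48, edgeR adjusted p = 0.967) and for Hsal_rRNA28 0.097 (SE 0.38, edgeR adjusted p = 0.903). It was 0.061 for Hsal_rRNA37 (SE 0.44, edgeR adjusted p = 0.95) and -0.036 for Hsal_rRNA30 (SE 0.40, edgeR adjusted p = 0.968). The smallest p above 0 belonged to Hsal_rRNA32, with 0.13 (SE 0.41, edgeR adjusted p = 0.876). The smallest p below 0 belonged to Hsal_rRNA15, a locus of 95 bases, with -0.54 (SE 0.69, edgeR adjusted p = 0.692). Hsal_rRNA15 was at 1.11, 2.49 and 11.7 CPM (lowest, median, highest) with CrzR siRNA and at 0.464, 2.94 and 21.5 CPM with GFP siRNA.

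The median standard error of the 18 loci was 0.56 on the log2 scale, against 0.22 over all tested rows, so only large changes of an rRNA locus could have been detected here. The sign of these fold changes turned on single brains. Without CrzR siRNA replicate 6 all 18 loci were below 0, with a median log2 fold change of -0.43, and without GFP siRNA replicate 9 all 18 were above 0, with a median of 0.29. Both fits still called 0 of the 18 loci. In CPM the 2 groups of brains failed to overlap at 0 of the 18 tested loci, beside 0.00989% of all tested rows. Of all 39 loci with reads it was also 0, but those below a mean of 1 CPM are not among the tested rows.

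**Figure D5:**
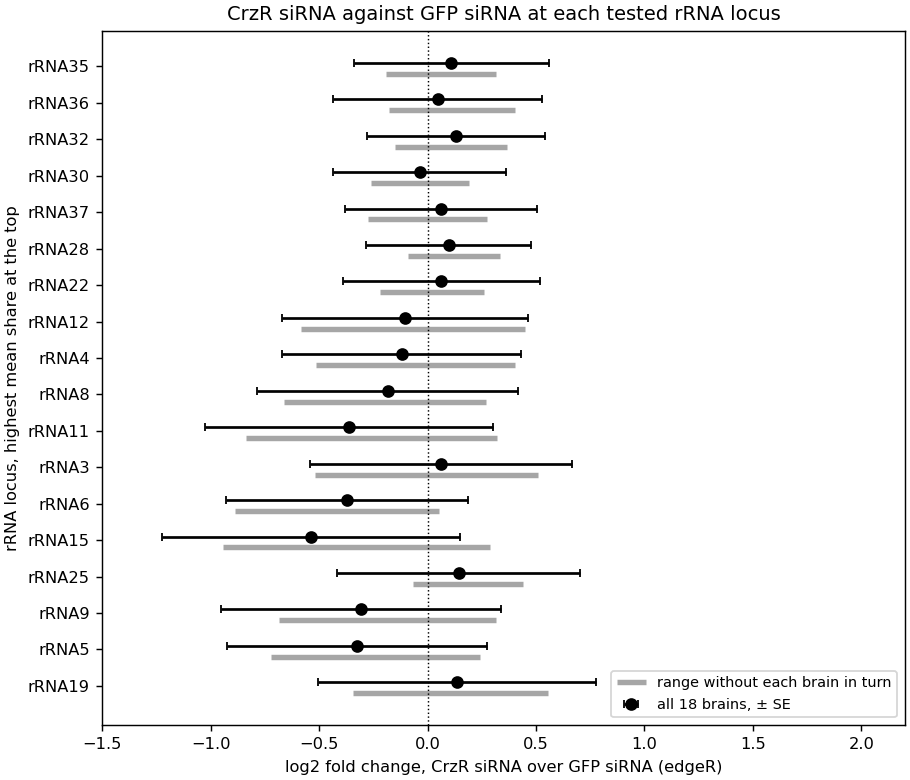
Log2 fold change of CrzR siRNA over GFP siRNA at each of the 18 tested rRNA loci from edgeR (points, with bars of ± 1 SE) and its range when each brain is left out in turn (grey bars). Every bar of ± 1 SE spans 0, and so does every grey bar.

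Composition of the rRNA reads was compared by exact permutation tests, two-sided, over all 48620 assignments of the brains. The nest was not a term in these tests or in the edgeR fits, so brains of ants that shared a nest are treated as independent. Hsal_rRNA35 took 45.7%, 47.2% and 53.1% of the rRNA reads (lowest, median, highest) with CrzR siRNA and 45.1%, 47.7% and 54.0% with GFP siRNA. Its mean share was 48.1 ± 2.57% with CrzR siRNA and 48.0 ± 2.5% with GFP siRNA (SD, n = 9 each), a difference of 0.070 percentage points (exact permutation p = 0.961, adjusted p = 0.961 over 3 tests). The effective number of loci, the inverse Simpson index of the shares, counts how many equally used loci would give the same concentration. It was 3.43 ± 0.220 with CrzR siRNA and 3.45 ± 0.195 with GFP siRNA (exact permutation p = 0.899, adjusted p = 0.961). Total rRNA, on the log2 scale of CPM, differed by 0.23 (exact permutation p = 0.597, adjusted p = 0.961). This difference was not past the threshold in any setting and moved widely with single brains, from 0.048 without CrzR siRNA replicate 9 to 0.40 without CrzR siRNA replicate 4. The 16 loci of 95 bases summed to 70.4 ± 61.3 CPM with CrzR siRNA and 70.6 ± 69.3 CPM with GFP siRNA (SD over 9 brains each).

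The labels carry an internal reference per brain, and these references form 2 separate runs of numbers. The high run, H152 to H201, holds 5 CrzR siRNA and 3 GFP siRNA brains, and the low run, H012 to H111, holds 4 and 6. What the runs stand for is not stated. The rRNA share of counts was 0.444%, 0.769% and 1.42% (lowest, median, highest) in the 8 brains of the high run, and 0.455%, 1.81% and 3.14% in the 10 brains of the low run. All 6 brains above 1.42% belonged to the low run, along with 4 others that lay inside the range of the high run. The mean of log2 CPM was 12.95 in the high run and 13.63 in the low run, a difference of -0.68 (two-sided exact permutation p = 0.118, adjusted p = 0.450 over 6 tests). Leaving out single brains moved the difference between -0.85 and -0.54, and the unadjusted exact permutation p between 0.0499 and 0.205. The values of -0.85 and 0.0499 came without GFP siRNA replicate 6, a low-run brain with little rRNA. The share on Hsal_rRNA35 was 47.1 ± 0.826% in the high run and 48.8 ± 3.07% in the low run (SD, n = 8 and 10, exact permutation p = 0.150, adjusted p = 0.450).

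Within the runs, CrzR siRNA brains and GFP siRNA brains did not differ detectably. These tests had only 56 assignments of the brains in the high run and 210 in the low run. With so few, p cannot become very small, so a difference could have been missed. The log2 difference in total rRNA, CrzR minus GFP, was 0.12 in the high run (exact permutation p = 0.786, adjusted p = 0.786) and 0.63 in the low run (exact permutation p = 0.314, adjusted p = 0.629). For the share on Hsal_rRNA35 it was -0.18 percentage points in the high run (exact permutation p = 0.786, adjusted p = 0.786) and 1.00 in the low run (exact permutation p = 0.624, adjusted p = 0.786). The correlation of total rRNA with snRNA was 0.96 within the high run and 0.72 within the low run, with tRNA it was 0.95 and 0.55, and with log2 depth it was -0.83 and -0.51.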

How the data were processed

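Polyadenylated RNA of 18 brains was sequenced strand-specifically with random hexamers for reverse transcription, in 2 technical runs per brain, per the labels' protocols. STAR 2.5.0b and DESeq2 appear in the submitters' processing notes. No source used here gives the genome build, the counting tool or the treatment of reads with several alignments. The deposited count columns hold whole reads per row, 1 column per brain, taken to hold both runs. The deposited RPKM columns are counts over row length and a divisor that differs between odd and even rows. They gave row lengths only (within 5.62e-06 of a whole number). What the replicate numbers stand for is not stated.

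CPM here takes the sum of all counts of a brain as its divisor. edgeR 4.0.16 (TMM scaling, group as only term) in R 4.3.3 tested all rows with a mean of at least 1 CPM. It was tested on simulated data. DESeq2 1.42.0 and limma 3.58.1 were alternatives, along with other scalings, filters, blocks and leaving out each brain. Benjamini-Hochberg adjusted p under 0.05 over all tested rows was the threshold. Single values were compared by exact permutation tests, and correlations used 100000 permutations. Named loci hold at least 1% of rRNA reads on average or have the smallest p in a direction. The members and lists were chosen with earlier results of these data known.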

Additional observations from a re-analysis of the deposited data

Results flagged for a closer look

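In 5 of 30 sets of 9 brains, 1 brain lay far from the others of its group. Chance would mark about 1 in 20 sets if the sets were independent and their values normally distributed. The 30 sets reuse the same 18 brains, and some hold CPM without logs, so the 5 cannot be read against that rate. CrzR siRNA replicate 6 had 212 CPM on the 16 loci of 95 bases, against 21.8 to 118 CPM in the other CrzR siRNA brains. CrzR siRNA replicate 9 had 2749 CPM on Hsal_rRNA37, against 326 to 1443 CPM in the other CrzR siRNA brains. GFP siRNA replicate 5 had an effective number of 2.97 rRNA loci, against 3.41 to 3.65 in the other GFP siRNA brains, and 54.0% of its rRNA reads on Hsal_rRNA35, against 45.1% to 48.7%. These 2 values are not independent. GFP siRNA replicate 9 had 23.3% of its rRNA reads on Hsal_rRNA36, against 14.2% to 17% in the other GFP siRNA brains.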

How the results depend on the processing

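Reads are few at 25 of the loci, with under 1000 each over all brains, and the levels of the others spread widely among brains. No alternative called an rRNA locus (0 in all fits). Over all rows, the 0 calls became 3 with DESeq2 and 1 without CrzR siRNA replicate 5 (0 to 1 without single brains). The count of 824 rows at unadjusted p under 0.05 was 1334 with every row tested, 1237 with the replicate block, and 437 (without CrzR siRNA replicate 8) to 2110 (without GFP siRNA replicate 8) without single brains. The cause was not tested. Of these rows 476 were higher and 348 lower with CrzR siRNA, and 685 and 113 with library size alone. The count also moved by over 1.5 times without CrzR siRNA replicates 2 (1270) and 4 (540) and GFP siRNA replicates 4 (507), 6 (1263) and 7 (483).

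Replicate numbers did not pair the brains: r exceeded 0.1 in 3 of the 9 pairs that share a number (-0.57 to 0.74), and 2 of 18 brains were closest to their own number. With the replicate block 0 rRNA loci were called.

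Total rRNA differed by 0.048 to 0.40 (log2) without single brains, and moved by over 1.5 times without CrzR siRNA replicate 4 (0.40), 6 (0.11) or 9 (0.048) or GFP siRNA replicate 1 (0.15), 5 (0.36), 6 (0.10), 7 (0.40), 8 (0.10) or 9 (0.38). The share on Hsal_rRNA35 differed by -0.035 points with thinned counts and by -0.55 to 0.82 without single brains, and the effective number of loci by -0.075 to 0.037. Fold changes turned sign for Hsal_rRNA30 with library size alone (0.13), limma voom (0.044), the replicate block (0.038) and the reference run as a term (0.16), and for Hsal_rRNA15 with limma voom (0.15). Without single brains they ran from -0.19 to 0.32 for Hsal_rRNA35, -0.18 to 0.40 for Hsal_rRNA36, -0.15 to 0.37 for Hsal_rRNA32, -0.26 to 0.19 for Hsal_rRNA30, -0.28 to 0.27 for Hsal_rRNA37, -0.091 to 0.33 for Hsal_rRNA28 and -0.94 to 0.29 for Hsal_rRNA15. None passed the threshold. The 18 loci, 9 above 0 and 9 below, became 12 and 6 with library size alone, 16 and 2 with limma voom, 13 and 5 with the replicate block and 14 and 4 with the reference run as a term. The loci vary together, so these are not counts of separate observations.

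Without single brains, the reference runs differed by -0.85 to -0.54 in log2 rRNA, an alternative chosen after seeing the data, as was summing the 95-base loci. The correlation of total rRNA ran from -0.74 to -0.48 with depth and from 0.48 to 0.71 with tRNA. The variance part of Hsal_rRNA35 was 48.7% to 52.1%, and the squared correlation of log2 values was 99.5%, a different quantity. The 1 group of loci became 2 at r = 0.8 and 7 with shares, and stayed 1 at r = 0.5.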
